A study of Mus musculus with 12 samples.

Results

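Collagens IV, XV and XVIII are the collagens built into basement membranes, and they are described here by the 8 genes that encode their chains, Col4a1, Col4a2, Col4a3, Col4a4, Col4a5, Col4a6, Col15a1 and Col18a1, each found by its symbol among the 36186 genes listed. Each of the 8 passed the filter on low counts in every comparison. They are 8 of the 44 collagen genes in the table.

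RNA from whole kidneys of mouse embryos at E18.5 was sequenced in 12 libraries on a mixed background, 3 from each of 4 genotypes: wild type, Hoxa9,10,11-/- Hoxc9,10,11+/- (here Hoxa-/- Hoxc+/-), Hoxa9,10,11+/- Hoxc9,10,11-/- (here Hoxa+/- Hoxc-/-) and Hoxa9,10,11-/- Hoxc9,10,11-/- (here double mutant). The mutant alleles carry frameshifts in neighbouring Hox genes of a cluster, and the labels name no mutation of Hoxd genes. The study's text describes the sequenced double mutants as keeping Hoxa11 as +/- or +/+, whereas the labels give Hoxa11 as -/-. It also reports that kidneys could not be detected at E18.5 in double mutants with Hoxa11 -/-. Which Hoxa11 alleles each double mutant library carried is not given. The libraries carry separate sample numbers, and the study counts 3 controls and 3 mutants for its RNA. It does not say outright that each library came from its own animal, so p-values measure the spread between these samples.

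A collagen IV molecule is a triple helix of 3 chains, and its molecules join at their ends into the sheet-like network of the basement membrane. The chains alpha1 and alpha2 form the network found in nearly all basement membranes, including that of the immature glomerulus. As glomeruli mature, podocytes add a network of alpha3, alpha4 and alpha5, and mutations of those chains cause Alport syndrome, a hereditary kidney disease. Collagens XV and XVIII belong to the multiplexins, which carry glycosaminoglycan chains and lie at basement membrane zones.

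The libraries held 28616877 to 47067903 expected counts. By library these were 37190035, 42353502 and 39304120 in wild type, 28616877, 41184985 and 38337107 in Hoxa-/- Hoxc+/-, 33106649, 47067903 and 46399578 in Hoxa+/- Hoxc-/-, and 39352856, 40151311 and 36951243 in the double mutants. The library labelled Hoxa-/- Hoxc+/- 20 stood apart. It had the lowest total, it was the lowest of the 12 for all 8 collagen genes, and its Spearman correlations with the other libraries over genes were 0.934 to 0.975, against 0.969 to 0.996 among the other 11. Its deviation from the median library fell with exon length (rho = -0.35 over 16081 genes), and the 8 genes deviated in it by a median of -0.82 on the log2 scale. In the other libraries this rho ran from -0.22 in wild type 37 to 0.27 in Hoxa-/- Hoxc+/- 31, so trends with length were not confined to library 20. The fold changes of the 8 genes that use this library are given with it and, where that turns their sign or a call, without it. The 3 Hoxa+/- Hoxc-/- libraries came from a sequencing run of their own and the other 9 shared another, so run and that genotype cannot be told apart.

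Sex was not labelled and was uneven between groups. Xist, the RNA that silences an X chromosome in female cells, was at 190.2 and 253 CPM (counts scaled to library size with TMM factors) in Hoxa-/- Hoxc+/- 31 and 33, 336 CPM in Hoxa+/- Hoxc-/- 110, and 72.8 and 60.0 CPM in double mutants 27 and 29. In the remaining 7 libraries, which include all 3 wild type libraries, it was at most 0.139 CPM, and the Y-linked gene Ddx3y was between 54.3 and 93.5 CPM. Col4a5 and Col4a6 lie on the X chromosome.

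The mutated genes check the labels only weakly, since a frameshift need not remove the transcript. Hoxa10 was at 125, 152 and 164 CPM in wild type libraries 30, 37 and 55, at 152, 104 and 107 CPM in Hoxa-/- Hoxc+/- 20, 31 and 33, at 112, 104 and 114 CPM in Hoxa+/- Hoxc-/- 38, 110 and the last library of that group, and at 101, 104 and 111 CPM in double mutants 24, 27 and 29. Hoxc10 was at 50.1, 58.9 and 66.9 CPM in the wild type libraries, at 119.6, 45.5 and 41.5 CPM in Hoxa-/- Hoxc+/-, at 32.0, 36.6 and 51.7 CPM in Hoxa+/- Hoxc-/-, and at 37.9, 29.1 and 35.7 CPM in the double mutants. The double mutant libraries were below the wild type libraries for both genes, and library Hoxa-/- Hoxc+/- 20 had the highest Hoxc10 of the 12. Over groups, mean Hoxa9 was 25.0 to 31.4 CPM, Hoxa11 42.8 to 56.1 CPM, Hoxc9 10.7 to 18.9 CPM and Hoxc11 1.06 to 1.93 CPM. The highest means of Hoxa9, Hoxc9 and Hoxc11 are those of Hoxa-/- Hoxc+/-, in which library 20 was at 40.4, 32.4 and 2.91 CPM, the highest of the 12 for each; its other libraries had Hoxc9 at 11.7 and 12.6 CPM. Whether library 20 is degraded or mislabelled cannot be told from these values. Hoxa9 was higher in each Hoxa+/- Hoxc-/- library (29.6 to 32.1 CPM) than in any wild type library (24.3 to 26.4 CPM), and Hoxc11 was lower in each double mutant (0.894 to 1.24 CPM against 1.56 to 1.83 CPM).

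Compared per kilobase of exon, Col4a1 and Col4a2, the fetal chains, were the highest of the 8. In wild type kidneys Col4a1 was at 325 ± 25.3 CPM per kb (SD, n = 3) and Col4a2 at 177 ± 10.2 CPM per kb. Col18a1 followed at 113 ± 14.5 and Col15a1 at 44.2 ± 5.38 CPM per kb. Of the mature glomerular chains, Col4a5 was at 26.7 ± 3.57 CPM per kb, and Col4a3 (5.62 ± 0.617) and Col4a4 (5.06 ± 1.36) were lower, with ranges that overlapped, so their order is not resolved. Col4a6 was the lowest at 2.35 ± 0.339 CPM per kb. The other neighbours in this order did not overlap among the wild type libraries, and the order was the same in all 4 groups except that Col4a4 lay above Col4a3 in Hoxa+/- Hoxc-/-.

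**Figure D1:**
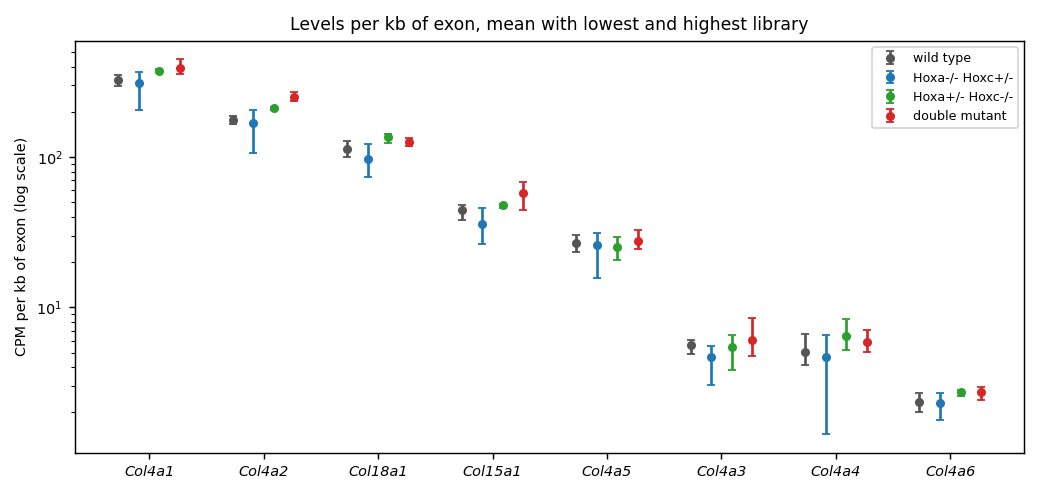
Level of each gene in CPM per kb of exon on a log scale, with points for the mean of 3 libraries and bars from the lowest to the highest library of each genotype. Col4a1 lies at the top in each genotype and Col4a6 at the bottom, and the Col4a3 and Col4a4 ranges overlap within each genotype.

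Col4a1 and Col4a2, which encode the fetal and ubiquitous chains, lie head to head on chromosome 8. In the RefSeq annotation of GRCm38.p6 (mm10), Col4a1 spans chr8:11198423-11312889 on the minus strand and Col4a2 spans chr8:11312805-11449287 on the plus strand, so that the annotated ends overlap by 85 bases. Their promoter windows, from 250 bases before to 50 after the start, share 78 bases. They are printed because these genes run through the results below and are read in opposite directions from a shared stretch. Col4a1 is at chr8:11312777-11313076, minus strand, and Col4a2 at chr8:11312555-11312854, plus strand, each written 5′ to 3′ along its gene. The capitals mark the CCAAT box (CCAAT) and the GC box (GGGCGG) on either strand.
Col4a1: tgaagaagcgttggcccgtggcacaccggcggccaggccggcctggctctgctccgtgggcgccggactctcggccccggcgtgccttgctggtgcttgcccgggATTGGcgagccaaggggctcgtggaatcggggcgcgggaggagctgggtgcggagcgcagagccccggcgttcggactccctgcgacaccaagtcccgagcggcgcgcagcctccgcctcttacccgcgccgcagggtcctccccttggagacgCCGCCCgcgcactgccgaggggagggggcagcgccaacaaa
Col4a2: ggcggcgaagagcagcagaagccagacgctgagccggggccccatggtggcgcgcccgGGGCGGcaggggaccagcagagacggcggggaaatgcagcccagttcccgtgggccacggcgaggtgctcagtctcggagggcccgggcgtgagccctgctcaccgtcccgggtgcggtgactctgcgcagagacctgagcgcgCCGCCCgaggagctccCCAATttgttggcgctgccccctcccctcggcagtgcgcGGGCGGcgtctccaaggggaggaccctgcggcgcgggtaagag

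The Col4a1 window holds 1 CCAAT box and 1 GC box, and the Col4a2 window holds 1 CCAAT box and 3 GC boxes. The GC box at chr8:11312812-11312817 lies in both windows, read as CCGCCC in that of Col4a1 and as GGGCGG in that of Col4a2. Of 32851 mouse promoter windows of 300 bases, 37.4% hold a CCAAT box and 35.7% a GC box. The letters CCCTNCCCC (9.48% of windows), TATAAA (13.6%) and TAATTA (5.29%), also searched on both strands, were in neither window.

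Col4a1 was at 2612, 2428 and 2234 CPM in wild type libraries 30, 37 and 55, at 1526, 2751 and 2704 CPM in Hoxa-/- Hoxc+/- 20, 31 and 33, at 2868, 2785 and 2764 CPM in the Hoxa+/- Hoxc-/- libraries, and at 2687, 3334 and 2745 CPM in double mutants 24, 27 and 29. All 3 double mutant libraries and all 3 Hoxa+/- Hoxc-/- libraries were above the highest wild type library, and so were 2 of the 3 Hoxa-/- Hoxc+/- libraries, library 20 being the lowest of all. Col4a2, in the same order of libraries, was at 1241, 1170.2 and 1105 CPM in wild type, at 704, 1371 and 1284 CPM in Hoxa-/- Hoxc+/-, at 1419, 1414 and 1354 CPM in Hoxa+/- Hoxc-/-, and at 1558, 1808 and 1596 CPM in the double mutants. Here the double mutant libraries were above each of the other 9, and library 20 was again the lowest.

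**Figure D2:**
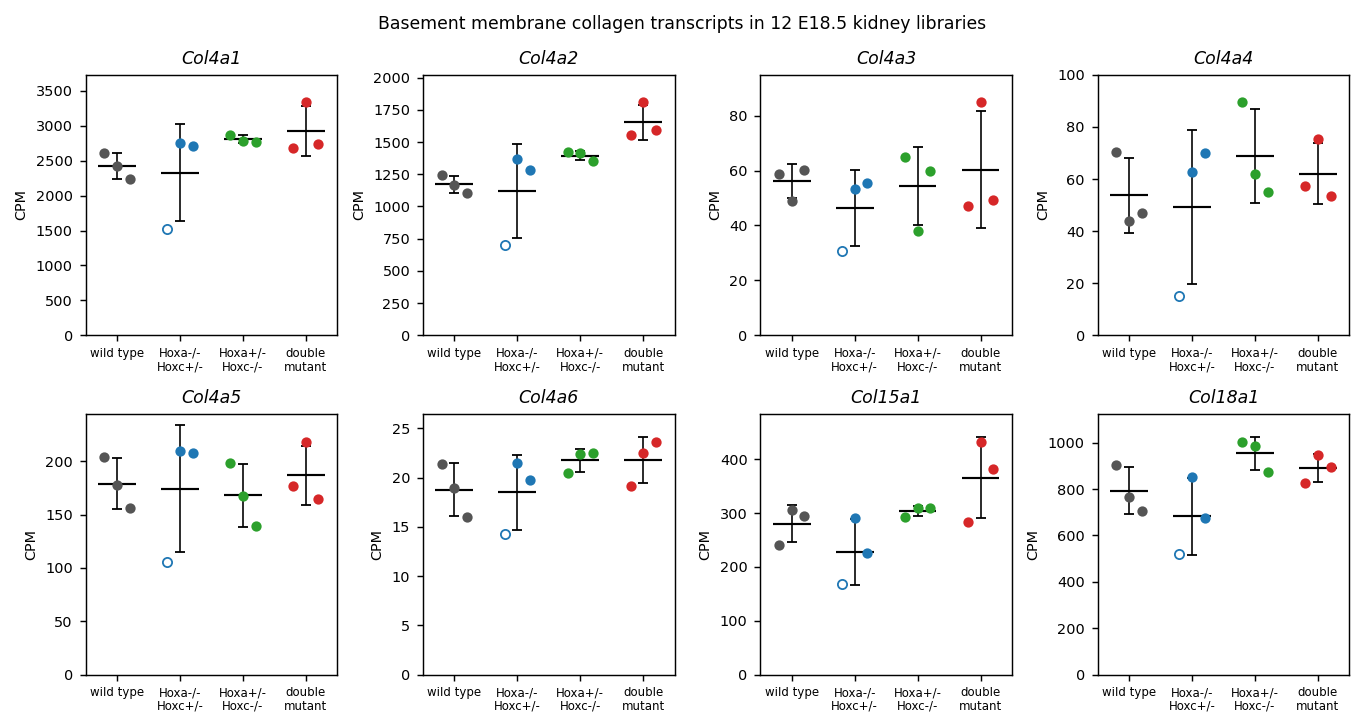
CPM of the 8 genes in each library, with each point a library, the line the mean of 3 and the bar 1 SD. The open point is library Hoxa-/- Hoxc+/- 20, lowest of the 12 for all 8 genes; for Col4a2 the 3 double mutant points, 1558 to 1808 CPM, lie above all others.

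In double mutants against wild type, Col4a2 was the only one of the 8 genes past the threshold of adjusted p below 0.05. Its mean was 1654 ± 134 CPM (SD, n = 3) against 1172 ± 67.8 CPM, a log2 fold change of 0.49 (SE 0.09, adjusted p = 0.0174 by the edgeR quasi-likelihood test with Benjamini-Hochberg adjustment), higher in 3 of 3 double mutant libraries. That is 1 of 8 genes called, or 12.5%, near the 13.7% called among all 15839 genes tested (6.31% higher, 7.4% lower), and 3 of the 8 had an unadjusted p below 0.05, as did 5131 of the 15839. The fold changes of all 8 genes were above 0 (49% of all genes were), with a median of 0.21 against -0.01 for all genes. For Col4a3, Col4a4 and Col4a5 the sign turned in another fit, and for Col4a5 also with scaling by library size only (-0.00360). The groups did not overlap for 2 of the 8, Col4a1 and Col4a2, both higher, against 38% of all genes (17.4% higher, 20.6% lower).

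Col4a1 moved by a log2 fold change of 0.27 (SE 0.11), which did not pass (edgeR adjusted p = 0.153), and was 0.16 without double mutant 27 and 0.07 with Xist added to the fit of 12 libraries. Over 10 alternatives with an adjusted p, that of Col4a2 ranged from 5.1e-06 to 0.402, and it was lost when all 12 libraries shared a fit (0.50, edgeR adjusted p = 0.169) and when Xist was added to that fit (0.29, edgeR adjusted p = 0.402). Without library Hoxa-/- Hoxc+/- 20, those shared fits gave 0.49 (edgeR adjusted p = 0.00228) and 0.45 (edgeR adjusted p = 0.0198). Left out in turn, wild type 37 gave an edgeR adjusted p of 0.0771 and wild type 55 one of 0.0845, with log2 fold changes of 0.50 and 0.45. In all, 2171 genes passed, 999 higher and 1172 lower (742 and 1649 with scaling by library size only). That total was 3386 without wild type 30, 535 without wild type 37, 633 without wild type 55, 793 without double mutant 24 and 1101 without double mutant 27.

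The balance between the paired chains also set the double mutants apart. For every 100 Col4a1 reads there were 47.5, 48.2 and 49.5 Col4a2 reads in wild type, 46.1, 49.9 and 47.5 in Hoxa-/- Hoxc+/-, 49.5, 50.7 and 49.0 in Hoxa+/- Hoxc-/-, and 58.0, 54.2 and 58.1 in the double mutants. The 3 double mutant libraries lay above the range of 46.1 to 50.7 of the other 9, at a mean of 56.8 ± 2.22 (SD, n = 3) against 48.4 ± 1.00 in wild type, a log2 difference of 0.23. This ratio does not depend on the scaling between libraries. Double mutant 24, which has no Xist, was at 58.0, and the Xist-expressing libraries of the other groups, Hoxa-/- Hoxc+/- 31 and 33 and Hoxa+/- Hoxc-/- 110, were at 49.9, 47.5 and 50.7. The part of sex in this ratio was not tested, and it cannot be told apart with 1 double mutant that lacks Xist. The ratio was noticed in these data, so it is given without a test. Whether counting used strand is not stated, so reads from the overlapping ends of the pair cannot be assigned with certainty.

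In Hoxa-/- Hoxc+/- against wild type, none of the 8 genes moved beyond the spread, and the direction of 5 of the 8 turned when a single library was left out. All 8 fold changes lay below 0, from -0.29 for Col15a1 to -0.02 for Col4a6, against 57.4% of all genes above 0. The groups overlapped for each of the 8 genes, so 0 of 8 did not overlap, against 8.33% of all genes (3.5% higher, 4.83% lower). By edgeR 0 of the 8 genes and 0 of 15789 genes passed (0% called). Before adjustment 360 genes had p below 0.05, 0 of them among the 8, and DESeq2 called 22 genes, none of the 8. Without library 20 the fold changes were 0.16 for Col4a1, 0.18 for Col4a2, -0.05 for Col4a3, 0.30 for Col4a4, 0.21 for Col4a5, 0.13 for Col4a6, -0.12 for Col15a1 and -0.06 for Col18a1, and 8 genes of the whole table passed. Without wild type 30 the sign also turned for Col4a1 (0.00173), Col4a4 (0.12), Col4a5 (0.07) and Col4a6 (0.09).

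In Hoxa+/- Hoxc-/- against wild type, Col4a1, Col4a2 and Col18a1 stood highest relative to the spread, and none of the 8 passed. The log2 fold changes were 0.22 for Col4a1 (SE 0.08, adjusted p = 0.193), 0.26 for Col4a2 (SE 0.08, adjusted p = 0.118) and 0.28 for Col18a1 (SE 0.11, adjusted p = 0.214), all by edgeR. The largest value of the 8 was that of Col4a4, with a wider spread, at 0.37 (SE 0.23, edgeR adjusted p = 0.407). It was 0.12 to 0.60 when 1 library was left out. So 0 of 8 genes passed by edgeR, against 2.36% of 15902 genes (376; 0.836% higher, 1.53% lower), while 3 of the 8 and 3349 of all genes had an unadjusted p below 0.05, and DESeq2 called 1309 genes, 1 of them among the 8, Col4a2 (adjusted p = 0.0202, within a range of 0.0202 to 0.924 over alternatives). Of the 8 fold changes 6 were above 0, as were 52.5% of all genes. For Col4a1 and Col4a2, both higher, the groups did not overlap, 2 of 8 against 26.6% of all genes (11.4% higher, 15.2% lower). When each library was corrected by GC and length bins, the fold changes were 0.03 for Col4a1, 0.09 for Col4a2 and 0.09 for Col18a1, and with Xist added to the fit of 12 libraries 0.10 for Col4a1, 0.14 for Col4a2 and 0.18 for Col18a1. The 376 genes became 60 without wild type 37, 70 without wild type 55, 63 without Hoxa+/- Hoxc-/- 110 and 99 without the last Hoxa+/- Hoxc-/- library.

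Double mutants were also compared with Hoxa-/- Hoxc+/-, which came from the same run. By the labels they differ in the Hoxc alleles, and by the study's text also in Hoxa11. All 8 fold changes were above 0 (48.3% of all genes were), led by 0.69 for Col15a1 (SE 0.24, edgeR adjusted p = 0.395) and 0.58 for Col4a2 (SE 0.26, adjusted p = 0.473). Col4a2 was the 1 gene of 8 whose groups did not overlap, against 22.8% of all genes (10.1% higher, 12.7% lower). By edgeR 0 of 8 genes and 0 of 15764 passed (0% called), with 1 of the 8 and 1787 of all genes at an unadjusted p below 0.05, and DESeq2 called 554 genes, none of the 8. Without library 20, 687 genes passed and 0 of the 8, with fold changes of 0.34 for Col4a2, -0.07 for Col4a4 and -0.14 for Col4a5. This comparison shares libraries with those against wild type, which in turn share the wild type libraries.

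**Figure D3:**
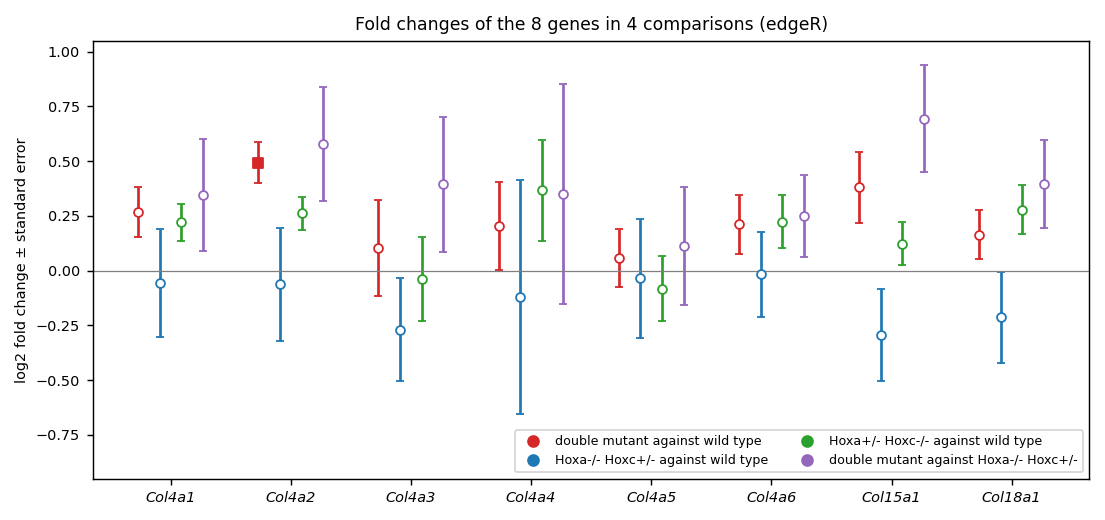
Log2 fold change of each gene in the 4 comparisons, with bars of 1 SE from edgeR. The filled square, Col4a2 in double mutants against wild type at 0.49, is the only value past an adjusted p of 0.05; the blue points for Hoxa-/- Hoxc+/- all lie below 0 with library 20 included.

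The mature glomerular chains varied more between libraries of a group than between groups. Col4a3 lies at chr1:82586921-82722059 and Col4a4 at chr1:82448419-82587034, head to head like the fetal pair, with annotated ends that overlap by 114 bases. Col4a3 was at 58.9, 49.0 and 60.3 CPM in wild type, at 30.5, 53.3 and 55.4 CPM in Hoxa-/- Hoxc+/-, at 64.95, 38.1 and 59.9 CPM in Hoxa+/- Hoxc-/-, and at 47.0, 84.8 and 49.3 CPM in the double mutants. Double mutant 27 was the highest of the 12 and the other double mutants were near or below the lowest wild type library. Col4a4 was at 70.3, 43.8 and 47.09 CPM in wild type, at 15.2, 62.8 and 69.9 CPM in Hoxa-/- Hoxc+/-, at 89.4, 62.0 and 55.2 CPM in Hoxa+/- Hoxc-/-, and at 57.3, 75.4 and 53.5 CPM in the double mutants. All mutant groups overlapped the wild type range for both genes.

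Against wild type, the double mutants gave log2 fold changes of 0.10 for Col4a3 (SE 0.22, edgeR adjusted p = 0.772) and 0.21 for Col4a4 (SE 0.20, edgeR adjusted p = 0.504). Without double mutant 27 the value for Col4a3 was -0.22. That for Col4a4 was 0.45 without wild type 30, 0.09 without wild type 37, 0.12 without wild type 55 and 0.04 without double mutant 27. Reads of Col4a4 per 100 of Col4a3 ran from 49.9 in library Hoxa-/- Hoxc+/- 20 to 163 in Hoxa+/- Hoxc-/- 110, a wider spread than that of the fetal pair, and averaged 95.6 ± 21.4 in wild type and 106 ± 16.6 in the double mutants (SD, n = 3 each).

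The Col4a4 window is shown beside those of the fetal pair because it covers the ends of the other head-to-head pair. It spans chr1:82586800-82587099 on the minus strand, 5′ to 3′ along the gene, and holds none of the 5 motifs searched, so it has no capitals. A window for Col4a3 was not available.
Col4a4: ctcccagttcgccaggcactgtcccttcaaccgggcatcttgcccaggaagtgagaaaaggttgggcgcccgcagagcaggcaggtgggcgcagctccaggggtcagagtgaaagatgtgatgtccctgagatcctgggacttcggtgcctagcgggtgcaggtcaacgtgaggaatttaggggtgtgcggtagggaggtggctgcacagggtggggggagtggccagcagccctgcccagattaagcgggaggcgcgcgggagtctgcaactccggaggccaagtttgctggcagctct

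Among the other windows, Col4a5 holds a CCAAT box and a GC box and Col4a6 a GC box. Of 2 windows for Col18a1, that at chr10:77166481-77166780 holds a CCAAT box and 3 GC boxes and that at chr10:77113656-77113955 none of the 5 motifs, and the Col15a1 window holds none. None of the windows of the 7 genes that had one holds CCCTNCCCC, TATAAA or TAATTA.

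Col4a5, whose chain joins either alpha3 and alpha4 or alpha6, and Col4a6, whose chain is found in the basement membranes of Bowman's capsule and some tubules, are neighbours on the X chromosome, chrX:141475370-141689236 and chrX:141165403-141474095, with 1274 annotated bases between them. Col4a5 was at 204, 178 and 156 CPM in wild type, at 106, 209 and 208 CPM in Hoxa-/- Hoxc+/-, at 198, 167 and 139 CPM in Hoxa+/- Hoxc-/-, and at 177, 218 and 165 CPM in the double mutants. Each group overlapped the others, and the log2 fold change of the double mutants was 0.06 (SE 0.13, edgeR adjusted p = 0.794). Col4a6 lay between 14.2 and 23.6 CPM in the 12 libraries, from 372 to 1093 counts, and its value in the double mutants was 0.21 (SE 0.14, edgeR adjusted p = 0.314), 0.11 without wild type 55, 0.32 without wild type 30 and 0.04 with 12 libraries and Xist. The 3 highest libraries for Col4a5, double mutant 27 and Hoxa-/- Hoxc+/- 31 and 33, all express Xist, while the other 2 with Xist, Hoxa+/- Hoxc-/- 110 and double mutant 29, were at 167 and 165 CPM.

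Of the multiplexins, Col15a1 (chr4:47207655-47313167) was at 242, 305 and 295 CPM in wild type, at 169, 291 and 226 CPM in Hoxa-/- Hoxc+/-, at 293, 309 and 309 CPM in Hoxa+/- Hoxc-/-, and at 284, 433 and 382 CPM in the double mutants. Double mutants 27 and 29 were the highest of the 12, while double mutant 24 lay inside the wild type range. Its log2 fold change in the double mutants was 0.38 (SE 0.16, edgeR adjusted p = 0.149), and 0.25 without double mutant 27, within a leave-one-out range of 0.25 to 0.54. With Xist added to the fit of all 12 libraries it was 0.15, and with Xist and without library Hoxa-/- Hoxc+/- 20 it was 0.22; the 2 high libraries are those with Xist, and the part of sex cannot be told apart with 1 double mutant that lacks it. Col18a1 (chr10:77052178-77166530), whose C-terminal fragment is endostatin, was at 904, 768 and 705 CPM in wild type, at 520.3, 853 and 673 CPM in Hoxa-/- Hoxc+/-, at 1004, 987 and 873 CPM in Hoxa+/- Hoxc-/-, and at 827, 946 and 896 CPM in the double mutants. Its wild type range overlapped that of each mutant group, and the double mutant value was 0.16 (SE 0.11, edgeR adjusted p = 0.336), 0.09 without wild type 55, 0.27 without wild type 30 and 0.02 with 12 libraries and Xist.

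The share of the fetal network was high in every library. Col4a1 and Col4a2 together made up 92.2% to 94.3% of the per-kb level of the 6 collagen IV genes, Col4a3, Col4a4 and Col4a5 together 5.24% to 7.36%, and Col4a6 0.366% to 0.536%. The summed per-kb level of the fetal pair was 12.5, 14.2 and 13.8 times that of the 3 mature glomerular genes in wild type, 15.3, 13.6 and 12.9 times in Hoxa-/- Hoxc+/-, 13.5, 17.0 and 18.003 times in Hoxa+/- Hoxc-/-, and 16.3, 14.96 and 17.6 times in the double mutants. The double mutant libraries lay above the wild type libraries but inside the range of Hoxa+/- Hoxc-/-. The 3 mature genes together were therefore a lower share, at means of 5.78% ± 0.448 in the double mutants and 6.88% ± 0.418 in wild type (SD, n = 3 each). Their own levels overlapped, 34.6 to 48.1 against 33.7 to 42.9 CPM per kb. Col4a5 made up most of this sum, at 26.7 of 37.4 CPM per kb in wild type. For Col4a3 and Col4a4 without Col4a5 the shares overlapped, 1.54% to 2.03% in the double mutants against 1.67% to 2.15% in wild type. As a difference of mean log2 CPM, the mature minus the fetal chains was -4.39 ± 0.14 in wild type, -4.53 ± 0.26 in Hoxa-/- Hoxc+/-, -4.56 ± 0.26 in Hoxa+/- Hoxc-/- and -4.65 ± 0.17 in the double mutants, and on this scale double mutant 27 at -4.46 lay inside the wild type range. Relative to wild type, Hoxa-/- Hoxc+/- was at -0.15, and at -0.08 without wild type 30, -0.22 without wild type 37, -0.00222 without library 20 and -0.25 without 33. Hoxa+/- Hoxc-/- was at -0.17, and at -0.10 without wild type 30, -0.32 without 38 and -0.07 without 110. The double mutants were at -0.27, with -0.36 to -0.20 when 1 library was left out. These balances are a description of chosen genes and carry no p-value.

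**Figure D4:**
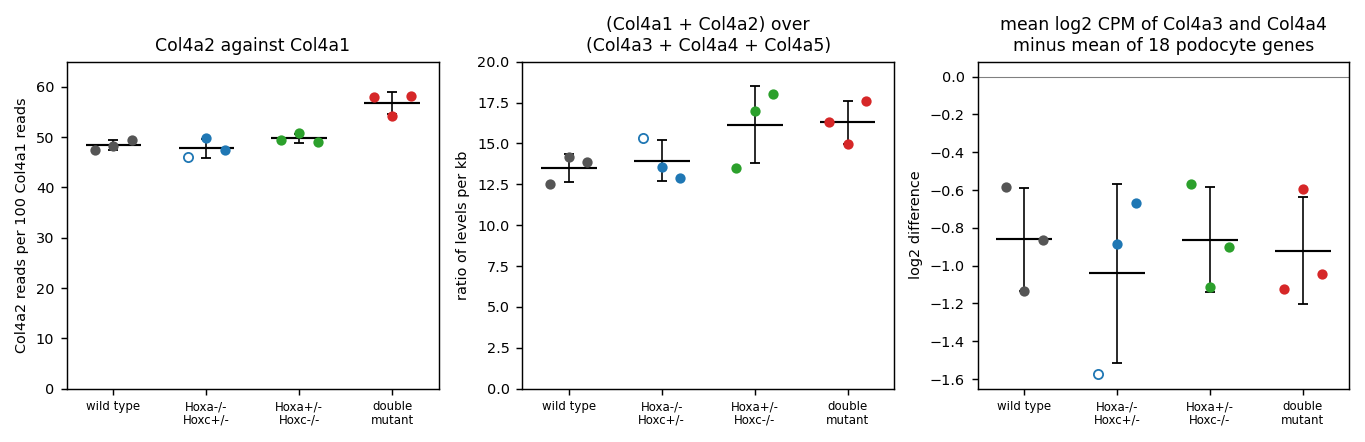
Balances of 3 kinds by library, with the mean of 3 and 1 SD: Col4a2 reads per 100 Col4a1 reads, the per-kb ratio of fetal to mature glomerular chains, and the mean log2 CPM of Col4a3 and Col4a4 minus that of 18 podocyte genes. In the left panel the double mutants, 54.2 to 58.1, lie above the other 9 libraries, while in the right panel the groups overlap.

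Podocytes make the mature chains of the glomerulus, so Col4a3 and Col4a4 were set beside podocyte genes. In wild type 30, 37 and 55 the mean log2 CPM of the pair was 6.01, 5.53 and 5.74. That of the podocyte genes was 6.59, 6.67 and 6.60, and that of 8 tubule genes 8.62, 8.11 and 8.10. Each of these means was lowest in library Hoxa-/- Hoxc+/- 20 and highest in double mutant 27. Which cells of the whole kidney held the Col4a3 and Col4a4 transcripts was not tested. The mean log2 CPM of Col4a3 and Col4a4 minus that of 18 podocyte genes was -0.86 ± 0.27 in wild type, -1.04 ± 0.47 in Hoxa-/- Hoxc+/-, -0.86 ± 0.28 in Hoxa+/- Hoxc-/- and -0.92 ± 0.28 in the double mutants (SD, n = 3 each), with overlap throughout. In double mutants against wild type 8 of the 18 podocyte genes rose and 0 fell (44.4%, against 13.7% of all genes), with a median of 0.19. Among them were Ptpro (0.50, SE 0.09), Synpo (synaptopodin; 0.43, SE 0.08) and Clic5 (0.62, SE 0.13), with edgeR adjusted p-values of 0.0121, 0.0177 and 0.0233. The defining markers Nphs1 (nephrin) and Wt1 had values of 0.45 and -0.32 and did not pass (edgeR adjusted p = 0.143 and 0.235). Summed, the 18 genes were at 2882, 2960.5 and 2906 CPM in wild type, 2222, 3112 and 2953 CPM in Hoxa-/- Hoxc+/-, 3255, 3033 and 3145 CPM in Hoxa+/- Hoxc-/-, and 3503, 3751 and 3202 CPM in the double mutants, and Podxl had the highest mean over the 12 libraries. In a whole kidney, more cells of a type and more RNA per cell cannot be told apart, and the part of podocyte number in the collagen values was not tested. The calls for Ptpro and Synpo were lost without wild type 37, wild type 55 or double mutant 24, with edgeR adjusted p-values between 0.0515 and 0.0754, and that of Clic5 also without double mutant 27, between 0.0597 and 0.0894. With 12 libraries in a fit all 3 were lost (edgeR adjusted p of 0.14 to 0.238), and with Xist added (0.27 to 0.517), where Ptpro was 0.31, Synpo 0.27 and Clic5 0.55, and Clic5 was lost by limma (adjusted p = 0.0585).

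Partners are the proteins that share the basement membrane with these collagens. Of 21 partners, 5 rose and 0 fell in double mutants against wild type, 23.8% against 13.7% of all genes, with a median of 0.22 against 0.21 for the 8 collagen genes. Lama2, the laminin alpha2 chain of muscle and mesenchymal basement membranes, rose by 0.76 (SE 0.09, edgeR adjusted p = 0.00431). Nid1 and Nid2, the nidogens that link laminin to collagen IV, rose by 0.51 (SE 0.08, edgeR adjusted p = 0.00968) and 0.31 (SE 0.07, edgeR adjusted p = 0.0348). Lamb3, a chain of the laminin of epithelial adhesion sites, rose by 1.38 (SE 0.25, edgeR adjusted p = 0.0154), and the fifth, Lamc3, named after its value was seen, by 0.59 (SE 0.15, edgeR adjusted p = 0.041). Lamc1, the partner with the highest mean CPM over the 12 libraries, had 0.17 and did not pass, nor did Lama1, Lama5, Lamb1 or Lamb2, the laminin chains of the immature and mature glomerulus, or Hspg2 and Agrn, the heparan sulfate proteoglycans. Without wild type 37 the call was lost for Nid1 (edgeR adjusted p = 0.0517), Lamb3 (0.0699) and Nid2 (0.125); that of Nid2 was also lost without wild type 55 (0.089) and without double mutant 24 (0.0787), 27 (0.0747) or 29 (0.081). Lama2 passed in all 6 of these fits and was lost with Xist added to the fit of all 12 libraries (0.66, edgeR adjusted p = 0.115, the highest over 10 alternatives, which went down to 4.3e-10). Nid2 was also lost in 5 of 10 alternatives (edgeR adjusted p up to 0.148).

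Of 12 genes for collagen IV biosynthesis, 2 rose and 0 fell in the double mutants (16.7%, near the 13.7% of all genes), with a median of 0.24. They were P4ha2 (0.51, SE 0.11) and P4hb (0.38, SE 0.08), subunits of prolyl 4-hydroxylase, which hydroxylates collagen chains so that the helix is stable, both with an edgeR adjusted p of 0.0262; both calls were lost without wild type 37 (0.101 and 0.0974), wild type 55 (0.0992 and 0.121) or double mutant 24 (0.0671 and 0.0881), and also without double mutant 27 for P4ha2 (0.0547) and 29 for P4hb (0.0607). Loxl2, an enzyme that crosslinks collagen IV, did not pass there (-0.03, SE 0.15, edgeR adjusted p = 0.896), but it rose in Hoxa+/- Hoxc-/- against wild type by 1.15 (SE 0.09, edgeR adjusted p = 0.00133), from 99.5 ± 7.995 to 219 ± 14.1 CPM (SD, n = 3 each). It was the 1 of 12 genes past the threshold in that comparison, in which run cannot be told apart from genotype. That call was lost with 12 libraries in a fit (edgeR adjusted p = 0.0673), with Xist added to it (0.116) and with 11 libraries and Xist (0.0657). Of 6 collagen receptors 1 rose, Ddr2 (0.57, SE 0.11, edgeR adjusted p = 0.0183), lost without wild type 37 (0.0708) or wild type 55 (0.0639), with 12 libraries in a fit (0.0807) and with Xist added to it (0.207).

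Markers of the other cells that make these collagens moved by different amounts in double mutants against wild type. Of 17 endothelial genes 2 rose and 0 fell (11.8%, against 13.7% of all genes), with a median of 0.11: Eng, a co-receptor for TGF-beta (0.46, SE 0.06, edgeR adjusted p = 0.00639), and Ehd3 (0.42, SE 0.10, edgeR adjusted p = 0.0302). Of 8 mural genes Acta2, Myh11 and Tagln, of the contractile apparatus, rose by 0.56, 0.55 and 0.54 and Mcam fell by 0.27, with a median of 0.27. All 8 interstitial fibroblast genes rose, with a median of 1.72, among them Col1a1 (1.88, SE 0.08, edgeR adjusted p = 2.0e-04) and Lum (3.04, SE 0.22, edgeR adjusted p = 8.1e-04). Of 6 nephron progenitor genes 4 fell and 0 rose, with a median of -1.35, of which Gdnf (-1.73, SE 0.28, edgeR adjusted p = 0.01) passed in each leave-one-out fit. Meox1 (-0.80), Crym (-1.02) and Cited1 (-1.45) each lost the call without wild type 37, wild type 55, double mutant 24 or double mutant 27 (edgeR adjusted p of 0.0584 to 0.112). Of 8 tubule genes 6 had values above 0, with a median of 0.40, and none of those passed, while 1 fell, Epcam (-0.28). Of 6 tested genes of other tissues 1 rose, Alb (3.397), with a median of 1.57. Left out in turn, wild type 37 ended the calls for Myh11, Tagln, Mcam, Epcam, Alb and Ehd3 (edgeR adjusted p of 0.0564 to 0.183), wild type 55 those and that of Acta2 (0.0538 to 0.161), double mutant 24 those for Mcam, Epcam and Ehd3 (0.0808 to 0.15), and double mutants 27 and 29 those for Mcam and Epcam (0.0647 to 0.107). With all 12 libraries in a fit, with or without Xist, Ehd3, Acta2, Myh11, Tagln, Mcam, Meox1, Crym, Cited1, Epcam and Alb each lost the call at least once (edgeR adjusted p up to 0.572), while Eng, Col1a1, Lum and Gdnf kept it. With Xist added to that fit the values were -0.40 for Meox1, -0.54 for Crym and -0.14 for Epcam, whereas over the alternatives Acta2 was 0.50 to 0.68, Ehd3 0.36 to 0.45 and Mcam -0.33 to -0.26.

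The fibroblast genes summed to 4148, 4164 and 3925 CPM in wild type, 5485, 5837 and 4386 CPM in Hoxa-/- Hoxc+/-, 5077, 6391 and 7027 CPM in Hoxa+/- Hoxc-/-, and 11487, 14006 and 12484 CPM in the double mutants, with Col3a1 highest by mean over the 12 libraries. The endothelial genes summed to 1523, 1680.0 and 1610.4 CPM in wild type, 1512, 1553 and 1569 CPM in Hoxa-/- Hoxc+/-, 1600.3, 1619 and 1702 CPM in Hoxa+/- Hoxc-/-, and 1758, 1859 and 1752 CPM in the double mutants, with Cdh5 highest by that mean. The mural genes summed to 1002, 1110.2 and 987 CPM in wild type, 1239, 971 and 990.0 CPM in Hoxa-/- Hoxc+/-, 931, 1058 and 1099.7 CPM in Hoxa+/- Hoxc-/-, and 1304, 1436 and 1270.1 CPM in the double mutants, with Acta2 highest by that mean. For these 3 lists the double mutant libraries lay above the wild type libraries, and no gene of them was at 0 in any library. Their part in the higher Col4a2 was not tested.

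The nephron progenitor genes summed to 210.3, 276 and 305 CPM in wild type, 470.2, 225 and 200.3 CPM in Hoxa-/- Hoxc+/-, 181, 237 and 228 CPM in Hoxa+/- Hoxc-/- and 89.5, 58.5 and 169 CPM in the double mutants, with Six2 highest by mean over the 12 libraries, and library Hoxa-/- Hoxc+/- 20, low for the collagens, was the highest. The tubule genes summed to 4193, 2815 and 2698 CPM in wild type, 1629, 3813 and 4228 CPM in Hoxa-/- Hoxc+/-, 4210.0, 3102 and 2795 CPM in Hoxa+/- Hoxc-/- and 3974, 5278 and 3517 CPM in the double mutants, with Cdh16 highest by mean over the 12 libraries and library 20 the lowest in sum. Lrp2 was above Cdh16 by mean in the double mutants (985 against 895 CPM) and in Hoxa-/- Hoxc+/- (702 against 685 CPM). Genes of other tissues summed to at most 32.1 CPM in any library, so liver, muscle and adrenal RNA was at a low level.

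In the other comparisons few list genes passed by edgeR. In Hoxa-/- Hoxc+/- against wild type and in double mutants against Hoxa-/- Hoxc+/- no gene of any list did, as no gene of the table did. In Hoxa+/- Hoxc-/- against wild type no partner, receptor, podocyte, endothelial, mural, nephron progenitor or tubule gene did, while of 8 fibroblast genes 3 (37.5%, against 2.36% of all genes), Lum (1.08), Postn (0.69) and Col3a1 (0.52), rose. Each of these 3 calls was lost without wild type 37, wild type 55 or Hoxa+/- Hoxc-/- 110 (edgeR adjusted p of 0.0692 to 0.197), that of Postn also without wild type 30 (0.0528), and those of Lum and Col3a1 without the last Hoxa+/- Hoxc-/- library (0.0756 and 0.121). By limma all 3 were lost (adjusted p of 0.0542 to 0.0927), and Postn and Col3a1 also with 12 libraries in a fit (0.257 and 0.14).

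**Figure D5:**
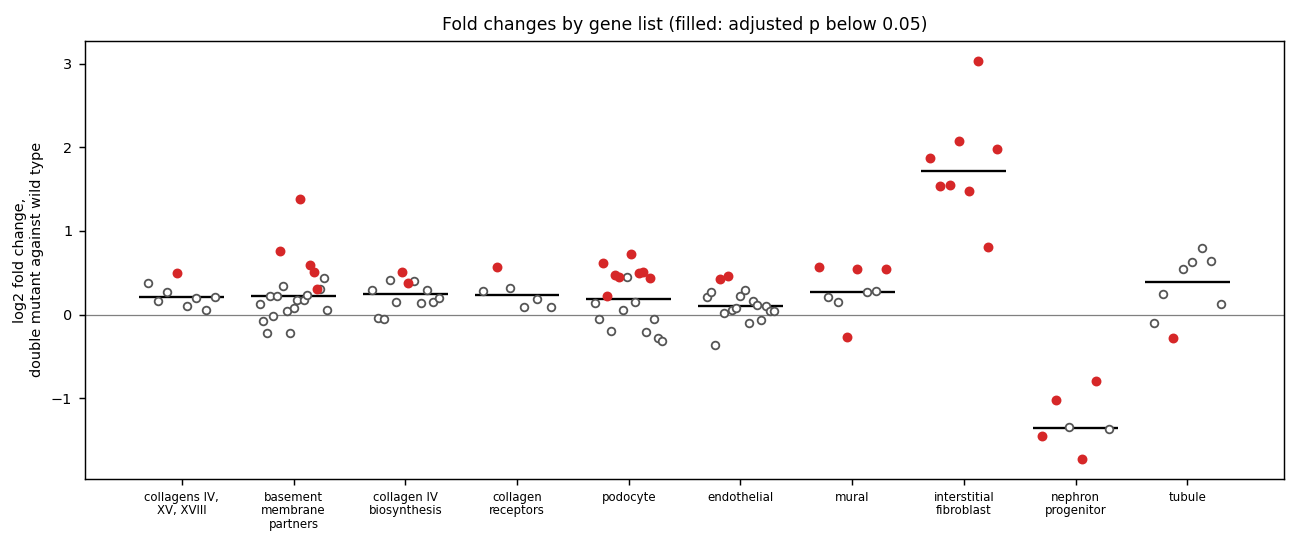
Log2 fold change in double mutants against wild type of each gene in 10 lists, with the line the median of the list and filled points those past an adjusted p of 0.05 by edgeR. The 8 basement membrane collagens have a median of 0.21, the 8 fibroblast genes 1.72 and the 6 nephron progenitor genes -1.35.

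Collagens outside the basement membrane set were also counted. Of 34 tested collagen genes outside the 8, 16 rose and 3 fell in double mutants against wild type, 55.9% against 13.7% of all genes, with a median log2 fold change of 0.56 against 0.21 for the 8. The fibril-forming Col1a1 and Col1a2 rose by 1.88 and 1.54, Col8a2 by 1.25 and Col14a1 by 1.22 (edgeR adjusted p = 4.1e-04 and 6.7e-04 for the last pair). The 3 that fell, named after their values were seen, were Col27a1 (-1.13, SE 0.10), Col24a1 (-0.81, SE 0.20) and Col11a2 (-2.87, SE 0.56), with edgeR adjusted p-values of 0.0016, 0.0365 and 0.0189. In Hoxa+/- Hoxc-/- against wild type 6 of the 34 rose and 0 fell (17.6%, against 2.36% of all genes in this comparison), with a median of 0.42 against 0.22 for the 8, among them Col16a1 (0.64), Col8a2 (0.64), Col3a1 (0.52) and Col27a1 (0.43), the last in the direction opposite to that in the double mutants. Of these, Col16a1 was lost without wild type 37 (edgeR adjusted p = 0.0792) or 55 (0.0658), and the others without either of those, Hoxa+/- Hoxc-/- 110 or the last library of that group (0.0942 to 0.216), with Col27a1 also lost without wild type 30 (0.0501). With Xist added to the fit of 12 libraries all 4 were lost (edgeR adjusted p of 0.0577 to 0.2). Over the alternatives Col27a1 went down to 0.14 and Col3a1 to 0.34. Each of these passed in 5 of 10 alternatives with an adjusted p, and Col16a1 and Col8a2 in 7 of 10. In Hoxa-/- Hoxc+/- against wild type 0 of 34 passed, with medians of 0.05 and -0.09. In double mutants against Hoxa-/- Hoxc+/- 0 of 34 passed, with medians of 0.72 and 0.37. The medians of the 8, -0.09 and 0.37, both include library Hoxa-/- Hoxc+/- 20. Without it, Col4a1 (0.16), Col4a2 (0.18), Col4a4 (0.30), Col4a5 (0.21) and Col4a6 (0.13) were above 0 against wild type. The other genes of the 8 stayed below 0, so the sign of -0.09 depends on this library. In double mutants against Hoxa-/- Hoxc+/- without it, Col4a4 (-0.07) and Col4a5 (-0.14) were below 0. The others stayed above 0, with Col4a2 at 0.34. Whether the members differ from other collagens was not tested.

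Across the 12 libraries, the genes whose log2 CPM was most like the mean of Col4a1 and Col4a2 among 16258 others were Myo1c, Pcdh1, Slit3, Kcnn3 and Synpo, with Pearson r of 0.98 each. In the 9 libraries that shared a run their r was 0.98 to 0.99, and without Hoxa-/- Hoxc+/- 20 and double mutant 27, the libraries farthest from the median, it was 0.91, 0.94, 0.87, 0.95 and 0.87. For the mean of Col4a3 and Col4a4 they were Sectm1a, Asb15, Tmprss2, Mfsd4 and Mcoln1, with r of 0.96 to 0.98, and 0.75 to 0.85 without the same libraries. Whether depth or length effects of the libraries enter these values was not tested. Of the mature chains, Col4a3 correlated with the fetal mean at r = 0.68 over 12 libraries and -0.29 without those 2, Col4a4 at 0.89 and 0.48, and Col4a5 at 0.76 and 0.09. Col4a6 went from 0.87 to 0.76, Col18a1 from 0.86 to 0.63 and Col15a1 from 0.82 to 0.30.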

How the data were processed

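The expected counts were made by the authors, as deposited, with Strand NGS on mm10 from 75-base paired-end TruSeq reads, with reads aligning to more than 1 position removed. The log2 values, also as deposited by the authors, were normalized by a method the file headers do not state, and their median is 0 for each gene. Whether counting used strand is not stated. Expected counts were rounded to whole numbers and tested by the edgeR quasi-likelihood test with TMM factors, filterByExpr (minimum count 10, minimum total 15) and Benjamini-Hochberg adjustment, with the 6 libraries of each comparison in a fit. CPM used TMM factors over 12 libraries, and log2 CPM a prior count of 0.5.

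The 8 members and the lists (partners, biosynthesis, receptors, podocyte, endothelial, mural, interstitial fibroblast, nephron progenitor, tubule, other tissue, other collagens) were chosen with earlier results of these data known. Genes named are the members, up to 4 per list and comparison by smallest adjusted p, the most abundant and defining markers, sex and Hox genes, and the 5 genes most like each profile. Symbols listed more than once number 92. P3h2 and Colgalt1 were found under older symbols.

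GENCODE vM21 matched 32542 genes by Entrez identifier or symbol, and RefSeq GRCm38.p6 matched 32916 and gave positions and sequences. Values of GC and length covered 99% of genes tested in double mutants against wild type, in 20 quantile bins each. The Audic-Claverie alternative asked for a fold change of 2. The scripts were tested on simulated data. Versions were R 4.3.3, edgeR 4.0.16, limma 3.58.1, DESeq2 1.42.0, Python 3.11.15, pandas 2.3.3, numpy 2.4.6, scipy 1.17.1 and matplotlib 3.10.9.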

Additional observations from a re-analysis of the deposited data

How the results depend on the processing

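In double mutants against wild type, Col4a2 stayed higher under each alternative (0.29 to 0.51) and past the threshold in 8 of 10 that give an adjusted p. The alternatives with 11 libraries and the omission of single libraries from the chain balance, 3 in all, were chosen after the data were seen. With 3 libraries a group, sex uneven between groups and library Hoxa-/- Hoxc+/- 20 apart, small changes cannot be resolved. Counts of Col4a6 went down to 372, and whether that limits its values further was not tested. No paired analysis was possible because replicate numbers are not shared between groups. The cause was not tested for any value below.

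Double mutants against wild type: genes past the threshold, 2171, were 3380 by DESeq2, 1190 with 12 libraries in a fit, 1009 with Xist added, 1215 by limma on the deposited log2 values and 880 by the Audic-Claverie test. Members past it, 1, were 0 with 12 libraries, 0 with Xist added and 0 by Audic-Claverie. Col4a2 was then 0.495 with 12 libraries, 0.286 with Xist added and 0.436 by Audic-Claverie. With Xist added to 12 libraries, Col4a3 was -0.0170, Col4a4 -0.156 and Col4a5 -0.149, and by library size Col4a5 was -0.00360. Leaving out 1 library gave 535 to 3386 genes, 0 to 1 members, and 0.427 to 0.541 for Col4a2, -0.22 to 0.26 for Col4a3 and -0.0684 to 0.16 for Col4a5.

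Hoxa-/- Hoxc+/- against wild type: genes, 0, were 22 by DESeq2, 2 with 12 libraries, 4 with 11, 1 by limma and 192 by Audic-Claverie. With 11 libraries Col4a1 was 0.171, Col4a2 0.181, Col4a4 0.305, Col4a5 0.221 and Col4a6 0.137. With 11 and Xist, Col4a1 was 0.0902, Col4a2 0.102, Col4a3 0.154, Col4a4 0.375 and Col4a5 0.174. With correction by GC and length Col4a6 was 0.0245. Leaving out 1 library gave 0 to 8 genes, and -0.19 to 0.16 for Col4a1, -0.23 to 0.18 for Col4a2, -0.46 to 0.30 for Col4a4, -0.18 to 0.21 for Col4a5 and -0.13 to 0.13 for Col4a6.

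Hoxa+/- Hoxc-/- against wild type: genes, 376, were 1309 by DESeq2, 149 with 12 libraries, 134 with Xist added, 976 with 11, 158 by limma and 119 with correction by GC and length. Members, 0, were 1 by DESeq2 (Col4a2, 0.26). Col4a3 was 0.00354 with 11 libraries and Xist, and Col15a1 -0.00828 with 12 and Xist. Leaving out 1 library gave 60 to 549 genes, and -0.20 to 0.16 for Col4a3 and -0.23 to 0.0376 for Col4a5.

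Double mutants against Hoxa-/- Hoxc+/-: genes, 0, were 554 by DESeq2, 1 with each gene of at least 1 count, 540 with 12 libraries, 653 with Xist added, 1203 with 11, 551 with 11 and Xist, 1 by limma, 598 by Audic-Claverie and 2 with correction by GC and length. Members, 0, were 1 with 12 libraries and Xist (Col15a1, 0.71, edgeR adjusted p = 0.0364 in a range of 0.0364 to 0.443). Col4a4 was -0.10 and Col4a5 -0.17 with 11 libraries, and -0.13 and -0.15 with Xist added. Leaving out 1 library gave 0 to 687 genes, and -0.0736 to 0.67 for Col4a4 and -0.14 to 0.26 for Col4a5.

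By longest transcript the wild type levels per kb were 367 for Col4a1, 6.55 for Col4a3, 2.82 for Col4a6, 54.3 for Col15a1 and 142 for Col18a1. Leaving out 1 library, Col4a3 and Col4a4 minus the podocyte mean, relative to wild type, was -0.22 to 0.08 in double mutants, -0.37 to 0.09 in Hoxa-/- Hoxc+/- and -0.15 to 0.14 in Hoxa+/- Hoxc-/-.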
